A study of Mus musculus with 7 samples.

Results

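The Reg family comprises small secreted C-type lectins made by epithelium and pancreas. Their members here were taken as every probe set whose platform annotation names only Reg1, Reg3a, Reg3b, Reg3g, Reg3d or Reg4. That rule gave 7 probe sets of 6 genes, among 45101 probe sets in the table and 18193 genes with a probe set of their own. Reg3b had 2 probe sets and each other member had 1. RNA came from the terminal ileum, the part of the small intestine next to the colon, of male C57BL6J mice aged 8 weeks. The penicillin group was 4 mice given low-dose penicillin at 6.7 mg/L from birth, and the control group was 3 mice given no antibiotic. All 7 mice were weaned at 4 weeks and switched at 6 weeks to a high-fat diet, in which fat supplied 45% of the energy. Each array is 1 mouse, so differences among arrays of a group are differences among animals, and their number limits the precision. Litter and cage were not among the details used here, and their part cannot be told apart from that of penicillin.

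In the mouse ileum Reg3g and Reg3b are antibacterial lectins that enterocytes and Paneth cells release into the mucus. Reg3g binds peptidoglycan and acts mainly on Gram-positive bacteria, while Reg3b is better known for action on Gram-negative ones. Their transcription depends on bacterial colonisation, through the adaptor MyD88 and through interleukin-22, whose receptor signals by STAT3. Reg1, also called pancreatic stone protein, and Reg3d, related to the hamster islet growth factor INGAP, are best known from pancreas, and Reg4 marks secretory cells of the gut epithelium. The study's question is how transcription in the ileum differs after penicillin from birth.

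The family showed no common shift. Reg3g and Reg3d had lower values in penicillin mice, Reg3a had higher ones, and Reg3b, Reg1 and Reg4 differed less. All 6 genes passed the filter on low values, and none passed the test over all genes (limma, Benjamini-Hochberg adjusted p under 0.05), where 13 of 13644 genes (0.0953%) did, 0.088% lower and 0.00733% higher. At an unadjusted p under 0.05 there were 3 of the 6, Reg3a, Reg3g and Reg3d, against 10.7% of all genes. The groups did not overlap for 2 of the 6, against 10.3% of all genes. Reg3a was higher, as were 4.29% of all genes without overlap, and Reg3d was lower, as were 6.05%. Differences are given in log2 units, penicillin minus control. Their median was -0.067 over the 6 members, of which 3 had higher and 3 lower values, and -0.014 over all genes tested.

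RefSeq places Reg3b, Reg3d, Reg3a, Reg2, Reg1 and Reg3g in that order on mouse chromosome 6, with a pseudogene between Reg1 and Reg3g, while Reg4 is on chromosome 3. The 250 bases before the transcript start are shown for the 4 Reg3 genes, since these neighbours differed in opposite directions. All 6 members had a window in RefSeq (GRCm38.p6). Capitals mark every match, on either strand, to the STAT motif TTCNNNGAA or to the TATA motif TATAAA. The windows are Reg3g at chr6:78468875-78469124 on the minus strand, Reg3b at chr6:78370635-78370884 on the plus strand, Reg3a at chr6:78380459-78380708 on the plus strand and Reg3d at chr6:78378866-78379115 on the minus strand.
Reg3g: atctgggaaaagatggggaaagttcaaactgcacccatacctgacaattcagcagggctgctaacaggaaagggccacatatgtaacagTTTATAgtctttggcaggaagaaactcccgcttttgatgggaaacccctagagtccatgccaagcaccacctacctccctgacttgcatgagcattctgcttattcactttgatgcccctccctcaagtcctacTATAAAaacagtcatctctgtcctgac
Reg3b: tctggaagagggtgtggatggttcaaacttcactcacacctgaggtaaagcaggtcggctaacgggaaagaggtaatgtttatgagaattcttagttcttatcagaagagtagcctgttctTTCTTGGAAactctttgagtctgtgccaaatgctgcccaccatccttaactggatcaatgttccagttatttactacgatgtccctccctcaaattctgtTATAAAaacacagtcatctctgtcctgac
Reg3a: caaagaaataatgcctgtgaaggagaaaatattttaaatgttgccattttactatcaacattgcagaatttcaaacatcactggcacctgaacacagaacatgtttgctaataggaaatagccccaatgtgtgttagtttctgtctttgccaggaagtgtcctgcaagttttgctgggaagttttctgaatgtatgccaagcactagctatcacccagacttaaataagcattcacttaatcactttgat
Reg3d: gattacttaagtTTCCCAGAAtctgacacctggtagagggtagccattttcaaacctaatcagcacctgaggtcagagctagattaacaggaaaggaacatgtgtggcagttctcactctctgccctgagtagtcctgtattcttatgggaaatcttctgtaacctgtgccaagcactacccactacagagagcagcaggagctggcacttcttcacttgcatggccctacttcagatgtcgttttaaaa

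Reg3g and Reg3b were the most alike of the 15 pairs of windows, with 173 identical bases in a global alignment, which is 69.2% of the 250. Reg3g shared 57.6% with Reg3d, 56.4% with Reg3a and 48.0% with Reg4. A TATA match began 27 bases before the start of Reg3g, 29 bases before that of Reg3b and 30 bases before that of Reg1. A second one, on the opposite strand, began 161 bases before the start of Reg3g. Reg3a, Reg3d and Reg4 had none in the window, and 12.4% of all 32851 RefSeq windows of the same length held one. The Reg3a window ends in tcactttgat, and in the Reg3g window these bases lie before the TATA match at 27 bases. Bases past the RefSeq start of Reg3a were not searched, and the identities depend on where the starts are placed. The STAT motif was found 129 bases before the start of Reg3b and 238 bases before that of Reg3d, and in 7.02% of all windows. The NF-kB pattern GGGNNNNNCC was in the Reg3g window alone of the 6, at 1 site that matches on both strands, and in 45.8% of all windows. No match of 1 motif overlapped that of another. Positions are those of the leftmost base as printed, and a match is one of letters, not of measured binding.

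Reg3g had log2 values of 14.23, 13.90, 13.53 and 13.50 in penicillin replicates 1 to 4, against 14.36, 14.35 and 14.22 in control replicates 1 to 3. The highest penicillin mouse lay just above the lowest control mouse, so the groups overlapped by that 1 pair, and the other 3 penicillin mice lay below every control. The means were 13.8 ± 0.347 (SD, n = 4) in penicillin mice and 14.3 ± 0.0761 (SD, n = 3) in control mice. The difference was -0.52 ± 0.17 (SE), or 1.43-fold lower, with an adjusted p of 0.397 in limma over all genes. Penicillin mice were spread more widely than control mice, and no test of that spread was run.

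Reg3b, by the brighter of its probe sets, had values of 14.52, 14.38, 14.17 and 14.17 in penicillin replicates 1 to 4, against 14.47, 14.52 and 14.48 in control replicates 1 to 3. Penicillin replicates 3 and 4, which were the lowest for Reg3g, were also the lowest here. The difference was -0.18 ± 0.094 (SE; limma adjusted p = 0.519). The second probe set of Reg3b had 14.22, 14.07, 14.06 and 13.98 in the penicillin mice and 14.08, 14.14 and 14.14 in the control mice. Its difference was -0.039 ± 0.065 (SE; limma adjusted p = 0.858 over all 45037 probe sets that are not the manufacturer's controls, of which 0.0377% were called). Both probe sets overlapped between the groups. The suffix of the brighter one (_s_at) is the manufacturer's mark for probes that can match more than 1 transcript, and whether related Reg transcripts add to it was not tested.

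**Figure D1:**
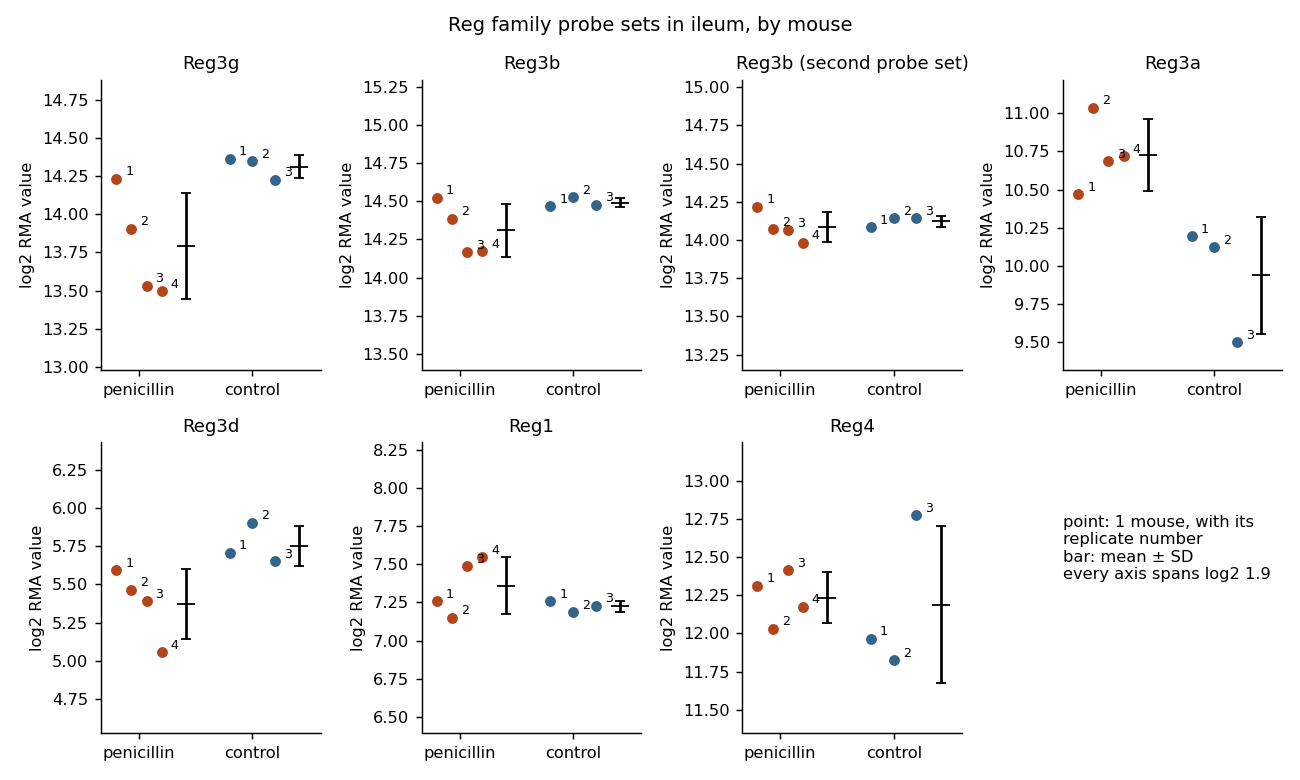
Log2 RMA values of the 7 Reg family probe sets in each mouse, penicillin left and control right, with the replicate number beside each point and the group mean ± SD as a bar. Every axis spans the same log2 range, so the scatter can be compared between panels: Reg3a and Reg3d are the panels without overlap between the groups, and control replicate 3 stands highest for Reg4 and lowest for Reg3a.

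Reg3g and Reg3b were among the brightest signals of the tissue. The highest value of an array was between log2 14.65 and 14.75, and only 47 to 55 of 45037 probe sets reached log2 14. Ranked from the brightest probe set, Reg3g stood at places 25, 63, 169 and 191 in penicillin replicates 1 to 4, against 13, 16 and 25 in control replicates 1 to 3. The brighter Reg3b probe set stood at places 6, 13, 33 and 28 in penicillin mice, against 5, 5 and 8 in control mice. The second stood at places 27, 40, 41 and 51, against 41, 39 and 34. For Reg3g, within each group, the ranks ordered the mice as the log2 values did. Only a narrow stretch of the log2 scale is left above Reg3g in control mice.

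Across the 49 probe sets with a mean of at least log2 14, among them 3 of the 7 Reg family probe sets, the median range over the 7 arrays was 0.125. Over the 2900 probe sets with a mean of log2 10 to 12 it was 0.298. Values therefore moved less near the top than in the middle of the scale, and how far true differences were compressed there was not tested. Reg3g had a range of 0.869, a size that 5 of the 49 probe sets reached or passed, Reg3g counted. Its difference was the lowest of the 49. Its mean over the 7 arrays, 14.01, was just over the limit, and its penicillin mean, 13.79, was under it, so this place depends on the cut-off. With the limit lowered to log2 13.5 there were 185 probe sets, and 2 others were as low or lower, both of Igha, the IgA heavy chain, named after its values were seen. Lyz1, the lysozyme of Paneth cells, was at 14.68 ± 0.0221 (SD) in penicillin mice and 14.70 ± 0.0389 (SD) in control mice, at the very top of the scale.

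**Figure D2:**
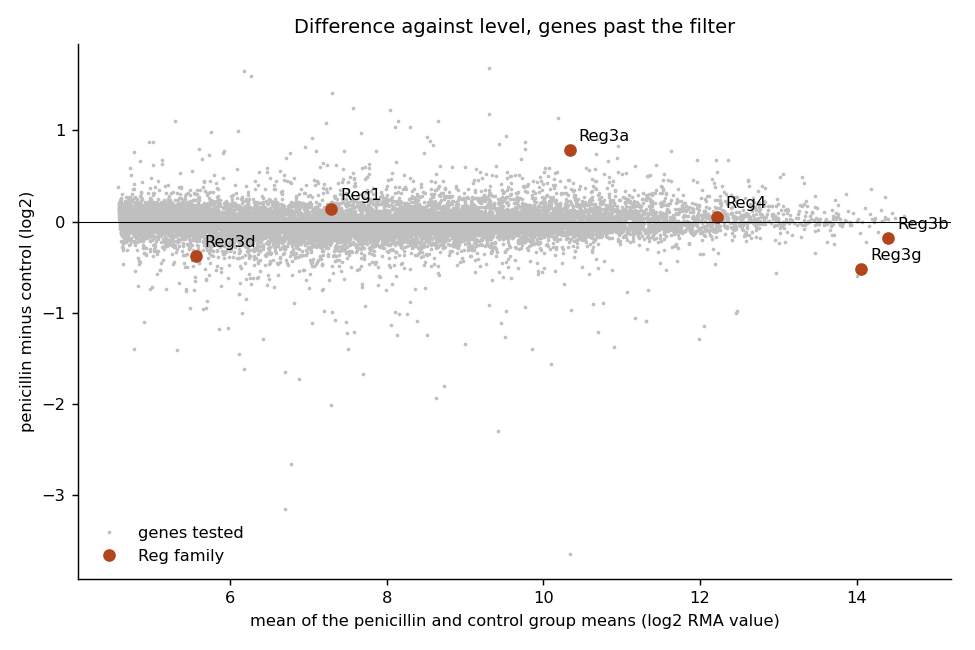
Penicillin minus control (log2) against the mean of the group means (log2 RMA value) for the genes past the filter, with the Reg family marked. The cloud narrows at the right, where Reg3b and Reg3g lie, and Reg3g, at -0.52, is at its lower edge, while Reg3a, at 0.79, lies towards the upper side in the middle of the scale.

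Reg3a is a further Reg3 lectin of gut and pancreas, and its level was in the middle of the scale. Values were 10.47, 11.04, 10.68 and 10.72 in penicillin replicates 1 to 4, against 10.19, 10.12 and 9.50 in control replicates 1 to 3. All penicillin mice lay above all control mice. The means were 10.7 ± 0.233 (SD, n = 4) in penicillin mice and 9.94 ± 0.382 (SD, n = 3) in control mice. The difference was 0.79 ± 0.19 (SE), or 1.73-fold higher, with an adjusted p of 0.259 in limma over all genes. Only 0.711% of all genes had a difference as large or larger in either direction.

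Control replicate 3 was the lowest mouse for Reg3a. That array was also lowest for all 11 enterocyte markers, whose mean level was 11.29 there, against 11.95 to 12.57 in penicillin mice and up to 12.05 in the other control mice. Without it the Reg3a difference was 0.57 ± 0.14 (SE; limma adjusted p = 0.235), and the groups still did not overlap. The part of the enterocyte markers in the Reg3a result was not tested beyond that.

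Reg3a and Reg3g differed in opposite directions within the same arrays. The log2 value of Reg3a minus that of Reg3g was higher by 1.31 ± 0.29 (SE from the spread within groups) in penicillin mice than in control mice. The level of this measure has no meaning between probe sets. Its change joins a gene near the top of the scale to another in the middle, and compression at the top was not tested. All penicillin mice lay above all control mice in this measure. The exact two-sided permutation test over the 35 splits of the arrays gave p = 0.0571, the smallest this design can give, so it cannot reach 0.05. Reg3a had the largest rise of the members and Reg3g the largest fall, and of this pair only Reg3a separated the groups. The test was chosen with earlier results of these data known, so its p is no independent evidence.

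Reg3d was low, not far above the filter at log2 4.588. Values were 5.59, 5.46, 5.39 and 5.06 in penicillin replicates 1 to 4, against 5.71, 5.90 and 5.65 in control replicates 1 to 3. All penicillin mice lay below all control mice, the closest pair being 5.59 and 5.65. The difference was -0.38 ± 0.13 (SE), or 1.30-fold lower (limma adjusted p = 0.400). RMA gives no detection call, so it was not determined whether Reg3d was above background.

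Reg1 had values of 7.26, 7.15, 7.49 and 7.54 in penicillin replicates 1 to 4, against 7.26, 7.18 and 7.23 in control replicates 1 to 3. Penicillin replicates 3 and 4, the lowest mice for Reg3g and Reg3b, were the highest for Reg1, and the groups overlapped. The difference was 0.14 ± 0.10 (SE; limma adjusted p = 0.605). Since Reg1 and Reg3 lectins are abundant in pancreas, 15 acinar cell markers were looked up, 12 of which were on the array. Of these, 9 had a mean under log2 7, with Cpb1 and Cpa1, the carboxypeptidases of pancreatic juice, at 3.58 and 4.14 and under the filter. The brightest were Clps, a lipase cofactor, at 11.4, and Rnase1, a ribonuclease, at 8.03. The mean level over the 12 was 6.09 to 6.14 in penicillin mice and 6.05 to 6.15 in control mice. Of the 9 past the filter, 4 had lower and 5 higher values. The groups did not overlap for 1 lower, Clps, and 1 higher, against 6.05% and 4.29% of all genes. Clps differed by -0.33 ± 0.082 (SE; limma adjusted p = 0.265).

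Reg4 was bright, with values of 12.31, 12.03, 12.41 and 12.18 in penicillin replicates 1 to 4, against 11.96, 11.82 and 12.77 in control replicates 1 to 3. Control replicate 3 was the highest of all mice and the other control mice were the lowest. The difference was 0.045 ± 0.22 (SE; limma adjusted p = 0.942). Without control replicate 3 it was 0.34 ± 0.11 (SE; limma adjusted p = 0.348), and the groups no longer overlapped. It turned to -0.067 without control replicate 1, to -0.14 without control replicate 2 and to -0.015 without penicillin replicate 3, so the data give no direction for Reg4.

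Reg4 is also made in colon, and control replicate 3 stood apart for some genes of that organ. The mean level of 7 colon markers was 8.09 there, against 6.26 to 6.996 in penicillin mice and 6.50 and 6.56 in the other control mice. Of the 7, 3 were highest there and 2 lowest. The colonocyte carbonic anhydrase Car1 reached 14.1 there, against 10.8 in penicillin replicate 1 and 5.11 to 7.63 in the other mice. Car4 and Slc26a3, the brightest by mean, were at 11.53 and 11.47 there, within the range of the other mice. The part of these markers in the Reg4 values was not tested.

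**Figure D3:**
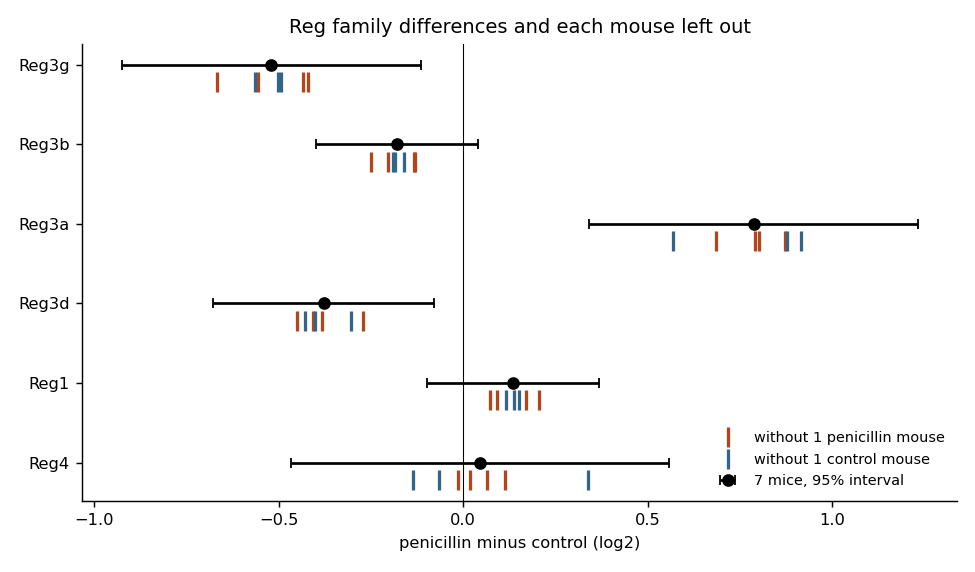
Penicillin minus control (log2) for the 6 Reg genes: points are the fit on 7 mice with its 95% interval, and ticks below are fits with 1 penicillin or 1 control mouse left out. Reg3g, Reg3b and Reg3d stay below 0 and Reg3a and Reg1 above it in these 7 fits, while Reg4 lies on both sides, from -0.14 to 0.34.

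With each mouse left out in turn, the Reg3g difference lay between -0.67 and -0.42 and that of Reg3b between -0.25 and -0.13. For Reg3d it lay between -0.45 and -0.27, for Reg3a between 0.57 and 0.91 and for Reg1 between 0.073 and 0.21. None of the 6 was called in any of these 7 fits by limma. Without control replicate 3 there were 2 members lower and 2 higher with no overlap between the groups, Reg3g and Reg3d lower and Reg3a and Reg4 higher, against 11.2% of all genes lower and 8.74% higher. In that fit 4 of the 6 had an unadjusted p under 0.05, against 10.6% of all genes. Over the other 6 fits that count was between 1, without control replicate 2, against 14.6% of all genes, and 4, without penicillin replicate 1, against 9.38%. Without penicillin replicate 1, 4 of the 6 had groups without overlap, Reg3g, Reg3b and Reg3d lower, against 8.19% of all genes, and Reg3a higher, against 6.6%.

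Reg3g, Reg3b and Reg3d ordered the penicillin mice in much the same way, and Reg3a did not. Penicillin replicate 1 was the penicillin mouse nearest to control mice for Reg3g, Reg3b and Reg3d, and replicates 3 and 4 were the farthest. Reg3b is taken here by its brighter probe set alone. On its second probe set penicillin replicate 1, at 14.22, lay above every control mouse, and no r was computed for that probe set. Across the 7 arrays, Reg3g and Reg3b had a Pearson r of 0.971 and a Spearman rho of 0.75, and r was 0.819 without the 2 arrays farthest from the median of the x measure, here Reg3b. Reg3g and Reg3d had r = 0.902 and rho = 0.929, with r = 0.827 without 2 arrays. Reg3a and Reg3g had r = -0.629 and rho = -0.643, with r = -0.926 without 2 arrays. These are descriptions over 7 arrays that share the difference between the groups, with no p, and they are 3 of 15 pairs computed.

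Of all genes tested other than the members, the 3 whose log2 values were most like each member's over the 7 arrays were listed by Pearson r. A search over so many genes with 7 arrays gave every member genes with a high r, so these r are no evidence of a link. For Reg3g they were Saa1 (r = 0.968, rho = 0.929), Parva (r = 0.958, rho = 0.679) and Slc38a1 (r = 0.956, rho = 0.964). Saa1, serum amyloid A1, is an acute-phase protein that the ileal epithelium makes on contact with bacteria. Without the 2 arrays farthest from the median of Reg3g, r with Saa1 was 0.988. Reg3d was most like Lat (r = 0.974), Saa2 (r = 0.969) and Mxd3 (r = 0.965), and r with Saa2 was 0.968 without 2 arrays. Lat is an adaptor of T cell receptor signalling and Saa2 is a close relative of Saa1.

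**Figure D4:**
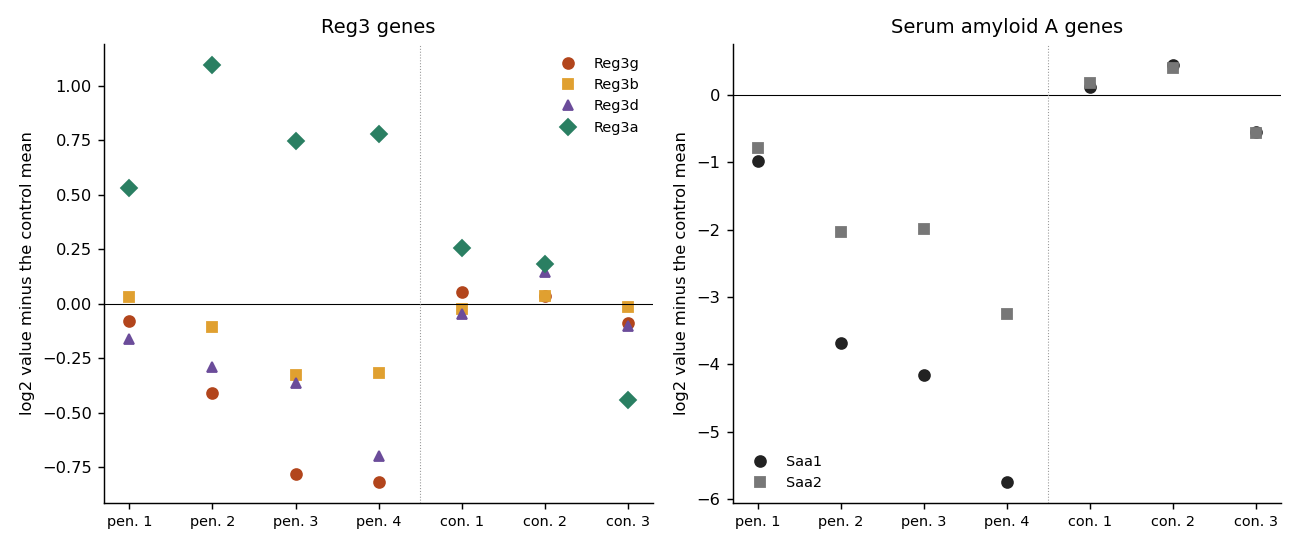
Log2 value minus the control mean in each mouse, penicillin mice left and control mice right, for 4 Reg3 genes and for Saa1 and Saa2 on their own scale. Penicillin replicate 1 lies nearest to the control mice and replicate 4 lowest for Reg3g, Reg3d, Saa1 and Saa2, and Reg3a lies above the control mean in all penicillin mice.

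Saa1 had values of 11.17, 8.47, 8.00 and 6.41 in penicillin replicates 1 to 4, against 12.27, 12.61 and 11.61 in control replicates 1 to 3. The order of the 4 penicillin mice was the same as for Reg3g, over a far wider stretch of the scale. Saa1 had the highest r with Reg3g of all genes searched on these same arrays, so the shared order is no independent evidence. The groups did not overlap, and the difference was -3.65 ± 0.97 (SE), or 12.5-fold lower (limma adjusted p = 0.301).

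Outside the family, Reg3b was most like Prss32 (r = 0.959), Plagl2 (r = 0.954) and Hnrnpl (r = 0.947), with r of 0.762, 0.511 and 0.639 without 2 arrays. The r of 0.971 between Reg3g and the brighter probe set of Reg3b was higher than these, and higher than that of Reg3g with Saa1 (0.968). Reg3a was most like Cyp4f16, a cytochrome P450 (r = 0.983), Fam171a1 (r = 0.977) and Dazap2 (r = 0.971). Cyp4f16 had 11.05 ± 0.198 (SD) in penicillin mice and 10.08 ± 0.477 (SD) in control mice, without overlap, a difference of 0.97 ± 0.21 (SE; limma adjusted p = 0.202). Reg1 was most like Psg23 (r = 0.988), Pex14 (r = 0.966) and Gsta2 (r = 0.960), and r with Pex14 was 0.215 without 2 arrays. Reg4 was most like Rps20 (r = 0.980), Pde2a (r = 0.973) and Prss29 (r = 0.959), and like Reg4 these were highest in control replicate 3.

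Genes upstream of Reg3 were taken from a list of IL-22 and STAT3 signalling with 28 genes, 20 of them tested. None passed over all genes in limma. At an unadjusted p under 0.05, 2 were lower, against 6.35% of all genes, and 0 were higher, against 4.37%. With 1 mouse left out, that count of 2 lower became 5 without control replicate 3, 4 without penicillin replicate 4 and 1 without penicillin replicate 2, against 6.28%, 5.51% and 4.67% of all genes. Without control replicate 2, 1 was higher. The median difference was -0.061, or -0.094 without penicillin replicate 3 and -0.038 without penicillin replicate 2. Il22ra1, the epithelial subunit of the IL-22 receptor, was at 8.90 ± 0.120 (SD) in penicillin mice and 8.67 ± 0.415 (SD) in control mice, and its difference of 0.23 turned to -0.011 without control replicate 3. Stat3, the transcription factor below that receptor, differed by -0.25 ± 0.17 (SE; limma adjusted p = 0.574). Its difference was -0.48 without control replicate 3, the lowest mouse for both genes, but -0.12 without control replicate 2 and -0.17 without control replicate 1 (limma adjusted p = 0.0922, 0.724 and 0.751).

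Socs3, a target and brake of STAT3, had 8.33, 7.67, 8.36 and 8.16 in penicillin mice and 9.41, 8.76 and 8.40 in control mice. Its groups did not overlap, and the difference was -0.72 ± 0.25 (SE; limma adjusted p = 0.410), or -0.45 without control replicate 1. Il6st, the shared gp130 subunit of the interleukin-6 receptor family, differed by -0.28 ± 0.078 (SE; limma adjusted p = 0.308). Bcl3, a nuclear NF-kB cofactor, and Il1b, interleukin-1 beta, differed by -0.39 and 0.17. Bcl3 was at -0.20 without control replicate 1, and Il1b at 0.10 without penicillin replicate 3.

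Of the list of MyD88 and microbial sensing, with 23 genes, 18 were tested, and 1 passed over all genes, Nfkbiz, which was lower. At an unadjusted p under 0.05, 5 were lower and 0 higher, against 6.35% and 4.37% of all genes. Without control replicate 2, 5 were lower and 2 higher, against 8.82% and 5.78%. The median was -0.11. Nfkbiz, an inducible NF-kB regulator of the epithelium, fell by 0.94 ± 0.11 (SE; limma adjusted p = 0.0443), with 9.30 ± 0.151 (SD) in penicillin mice and 10.2 ± 0.177 (SD) in control mice. It was called in 1 of the 7 limma fits that leave out a mouse, the one without penicillin replicate 2. With its probe sets averaged it was at -0.67 (limma adjusted p = 0.0726). Myd88 itself differed by -0.089 ± 0.063 (SE; limma adjusted p = 0.595), or by -0.038 without control replicate 1 and -0.15 without control replicate 3. The Toll-like receptors Tlr1, Tlr2 and Tlr4, which sense bacterial lipopeptides and lipopolysaccharide, differed by -0.85, -0.46 and -0.52. None of the 3 overlapped between the groups, and 6.05% of all genes were lower without overlap.

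Of the list of epithelial genes induced by microbes, with 22 genes, 17 were tested and none passed over all genes in limma. At an unadjusted p under 0.05, 12 were lower and 0 higher, against 6.35% and 4.37% of all genes. Without penicillin replicate 4, 11 were lower and 1 higher, against 5.51% and 3.33%. The groups did not overlap for 9, all lower, against 6.05% of all genes. The median was -0.69, against -0.067 for the Reg family. Ubd, a ubiquitin-like protein, differed by -1.61 ± 0.31 (SE), Defb1, a beta-defensin, by -1.18 ± 0.22 (SE) and Pigr, which carries IgA into the lumen, by -0.34 ± 0.069 (SE), with limma adjusted p of 0.152, 0.142 and 0.168. The mean level of the 20 members on the array was 6.87, 6.63, 6.47 and 6.26 in penicillin replicates 1 to 4, against 7.33, 7.40 and 7.45 in control replicates 1 to 3. The 4 penicillin mice fall in the same order as for Reg3g. Several of these genes were known from earlier results of these data to be lower, so the counts are no independent evidence of the direction.

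Of the list of other gut lectins and antibacterial secretions, with 21 genes, 13 were tested and none passed in limma. At an unadjusted p under 0.05, 5 were lower and 0 higher, against 6.35% and 4.37% of all genes. Without control replicate 1, 3 were lower, against 5.09%. The median was -0.17, or -0.11 without control replicate 3. Mptx1, a pentraxin of Paneth cells, differed by -1.09 ± 0.15 (SE; limma adjusted p = 0.0719), Pla2g2a, a bactericidal phospholipase, by -0.62 ± 0.10 (SE) and Mmp7, which activates defensins, by -0.47 ± 0.10 (SE). None of these 3 overlapped between the groups, and 6.05% of all genes were lower without overlap. Of the list with Extl3, which has been proposed as a Reg receptor, and epithelial transcription factors, 14 of 15 were tested, none passed in limma and the median was 8.4e-04. Extl3 was at 7.93 ± 0.0961 (SD) in penicillin mice and 8.01 ± 0.0344 (SD) in control mice, a difference of -0.078 ± 0.065 (SE; limma adjusted p = 0.641). Without penicillin replicate 3, the Extl3 difference was -0.038 and the list's median -0.024. Gata6 and Cdx2, regulators of intestinal identity, differed by 0.13 and 0.098. Without control replicate 2 they were at 0.21 and 0.064, and Gata6 was at 0.081 without control replicate 1.

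**Figure D5:**
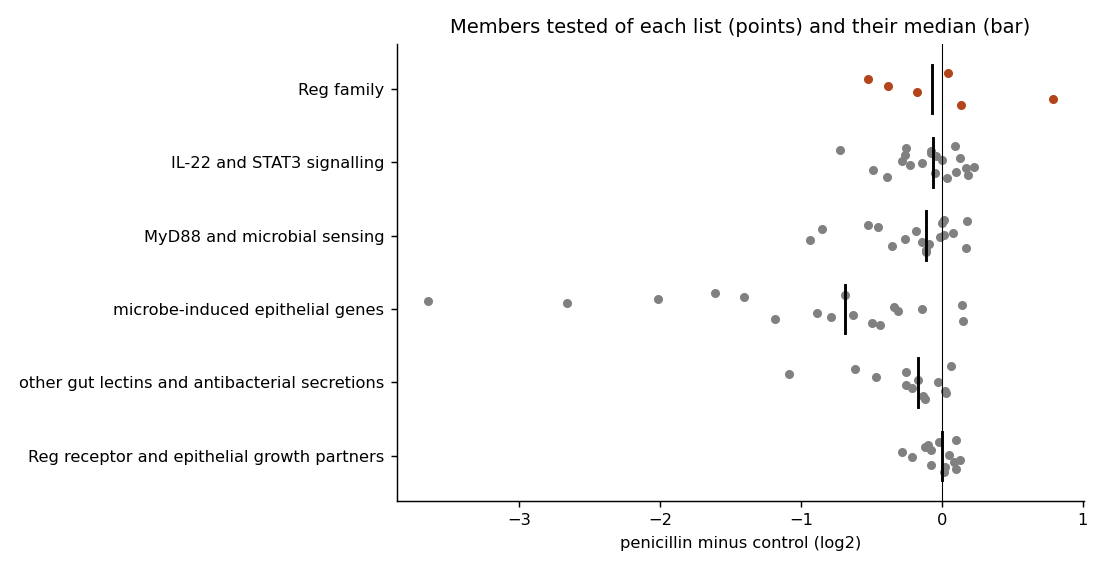
Penicillin minus control (log2) for each tested gene of the Reg family and of the 5 lists of related genes, with the median of each as a bar. The genes induced by microbes lie mostly to the left, with a median of -0.69, while the Reg family lies on both sides of 0.

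The tissue is labelled terminal ileum, while the growth protocol speaks of livers, and ileal markers were bright: Fabp6, the ileal bile acid carrier, lay between 14.3 and 14.6 and Slc10a2, the ileal bile acid transporter, between 9.91 and 11.4 over all arrays. Cell type markers moved beside the Reg genes. The mean level of 6 Paneth cell markers was 12.4 to 12.6 in penicillin mice and 12.8 to 13.0 in control mice, with all 6 lower and all 6 highest in control replicate 3. Markers of T and NK cells were at 6.12 to 6.59, against 7.08 to 7.25 in control mice (8 of 8 lower), and those of B and plasma cells, 6 on the array, at 6.20 to 6.67, against 7.12 to 7.21 (4 of 4 tested lower). Of all genes tested, 54.7% had lower values. Enteroendocrine markers were at 8.86 to 8.96, against 8.68 to 8.78 in control mice. Goblet cell, stem cell, smooth muscle and macrophage markers overlapped between the groups, and none of 5 neutrophil markers passed the filter. Fewer cells of a type and less RNA per cell cannot be told apart in whole tissue, and the part of these markers in the Reg values was not tested.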

How the data were processed

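Biotin-labelled total RNA of 7 ileum samples was measured on Affymetrix arrays, as the labels' protocols state. The table deposited by the authors holds log2 values of probe sets, and RMA and affy are the tools named, per the submitters' processing notes. Versions and the build used were not given in the sources used here. RMA subtracts background, gives all arrays nearly the same distribution and combines probes, so array-wide shifts are removed. Depth is not defined for arrays.

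Genes were named by the platform annotation of 2016 (34945 probe sets with 1 gene, 34741 of them with a RefSeq gene ID). The probe set of highest mean stood for each gene, and genes at or under the 25th percentile of means (log2 4.588) were left out, which left 13644. The comparison of penicillin with control used limma 3.58.1 (R 4.3.3; lmFit and eBayes, two-sided, Benjamini-Hochberg over all genes, threshold 0.05). Each list in the text was counted, not tested. The members, the lists (5 of related genes and 12 of cell type markers) and the tests were chosen with earlier results of these data known. Some lists share genes: Il6st is in 2 of the lists of related genes.

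The text names all members and a fixed set of pathway genes (Extl3, Il22ra1, Stat3, Socs3, Myd88, Nfkbiz, Saa1 and Lyz1). It also names up to 3 other genes of each list by the moderated t, and the 3 genes outside the family most like each member. Of the marker lists it names up to 2 by level. Cpb1, Cpa1, Car1, Slc10a2 and Igha were picked with their values in view. The fit was tested on simulated data with known changes. Replicate numbers did not pair the mice: the deviations of same-numbered mice correlated with r of -0.16, 0.0030 and -0.42. Alternatives were quantile normalization again, centring on medians, other filters, averaged probe sets, other spread models, a replicate block, a threshold of 0.1, each mouse left out and control 3 and penicillin 3 left out together. Promoter windows were aligned with Biopython 1.88 and figures drawn with matplotlib 3.10.9 in Python 3.11.15.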

Additional observations from a re-analysis of the deposited data

How the results depend on the processing

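Reg3g, Reg3b, Reg3d, Reg3a and Reg1 kept their direction under every alternative run, with ranges of -0.67 to -0.42, -0.25 to -0.11, -0.45 to -0.27, 0.57 to 0.91 and 0.060 to 0.21. Reg3d has no value with the filter at the 50th percentile. With array quality weights 1 member was called, Reg3a, at 0.64 (limma adjusted p = 0.0428, over a range of 0.0428 to 0.790). In that fit 774 of 13644 genes were called in either direction, and the share of all genes called lower is not given here. Many of the 22 named genes followed that are no members were picked by their moderated t in these data. Counts among the 22 are therefore no independent evidence. Of the 22, 14 not called as reported were called in that fit, all lower (limma adjusted p of 0.0149 to 0.0479). Among them were Socs3, Bcl3 and Stat3, at -1.28, -0.73 and -0.44, each over 1.5 times the reported size, with Saa1, Il6st, Tlr1, Tlr2, Tlr4, Defb1, Ubd, Pigr, Mptx1, Pla2g2a and Mmp7. The count of called genes was 7 with probe sets averaged, 0 with an unmoderated statistic, 40 at a threshold of 0.1, 2 without control 3 and penicillin 3 together, and 0 to 15 with each mouse left out. It was 0 with the replicate block, which called 0 members. In the paired fit the Reg3a minus Reg3g difference was 1.21. Reg4 lay between -0.14 and 0.34 over the fits with 1 mouse left out, and turned to -0.067, -0.14 and -0.015 in 3 of them. Il22ra1 was at 0.35 without control replicate 2, turned to -0.011 without control replicate 3 and to -0.045 without control 3 and penicillin 3. The cause of these changes was not tested. The Reg3a minus Reg3g difference lay between 1.06 and 1.54, with exact permutation p from 0.0571 to 0.25. Reg3b and Reg3g lie near the top of the scale, where compression of differences was not tested, and 7 arrays limit every value.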
